A study of Homo sapiens with 2 samples.

Results

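The MYC, MAX and MNT network was examined in KYSE-170, an oesophageal squamous carcinoma cell line, after transfection with an oligoribonucleotide for miR-210 or with one that the labels call ncRNA. The network was taken as 10 genes, and probes were assigned by the platform gene symbol after updating it to the current name. Of the 10 genes, 7 were named on the array, of 12445 genes named there in all, by 8 probes: MYC, MYCL, MYCN, MNT, MXI1, MXD3 and MXD4. No probe carried the name of MAX, MXD1 or MLX, which were not analysed here. Each transfection had 1 sample and 1 array, a 1-colour Cy5 hybridisation of cRNA made from 500 ng of total RNA, so that no difference below has a replicate check or a p-value. Nothing in the labels says what sequence the ncRNA oligoribonucleotide has or how long the cells were transfected.

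MYC, MYCN and MYCL encode basic helix-loop-helix leucine zipper proteins that bind DNA as heterodimers with MAX and mostly activate transcription. MNT, MXI1, MXD1, MXD3 and MXD4 encode repressors that also pair with MAX, bind the same E-box motif and recruit SIN3 corepressors, while MLX is the partner of the glucose-responsive factors MLXIP and MLXIPL and of some of the repressors. The network is of interest with miR-210, a microRNA induced by hypoxia, because MNT has been reported as one of its targets. The mature strand of miR-210 is printed below from RefSeq, since its seed sets which transcripts it can pair with; the capitals mark the seed, bases 2 to 8 from the 5′ end, and the strand lies on GRCh38.p14 chr11:568112-568133, minus strand.
hsa-miR-210-3p: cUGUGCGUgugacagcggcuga
A transcript that pairs with the whole seed carries the 7 bases ACGCACA. Transcript sequences were not used here, so no site was searched in any member.

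The arrays had median intensities of 39 (ncRNA) and 36 (miR-210), in arbitrary units. Log2 ratios below are miR-210 over ncRNA after quantile normalization. Genes were kept where the mean log2 level of the probe was at least that of the median probe (37.5 in intensity), which left 6681 genes. FGFRL1, an established miR-210 target, read 277 with ncRNA and 21 with miR-210; where values are paired below, ncRNA comes first. The only error at hand is the spread of probes of the same gene, a SD of 0.44 on the log2 scale over 251 genes with 2 or more kept probes. It leaves out differences between cultures and arrays. Epithelial markers ranged from 30 to 15066 on the ncRNA array, with SFN at 12693 and 7094 and KRT18 at 10285 and 14550, and 10 of their 11 probes were kept; the probe of TP63, a squamous lineage factor, read 57 and 22 and was not. The 7 squamous markers kept had a median log2 ratio of 0.19, with 4 above 0, among them KRT5 (290 and 496) and PKP1 (30 and 49), and 3 under it, SFN, S100A2 (15066 and 8868) and KRT13 (295 and 186). Without the level filter that median was -0.17. PKP1 was under the array median with ncRNA and passed the filter only through the miR-210 array. The 3 simple epithelium markers, KRT8, KRT18 and EPCAM, all stood above 0, with a median of 0.66 (0.45 without normalization). The part of this in the results below was not tested. Markers of fibroblasts, leukocytes and endothelium gave 13 probes, of which 3 were kept, with medians of 21 (ncRNA) and 16 (miR-210). The 3 kept were probes of DCN (183 and 181), CD79A (133 and 126) and VWF (126 and 103). Among the probes not kept were those of COL1A1 (21 and 16), PTPRC (9 and 10) and CDH5 (10 and 26). They give only a rough guide to the signal of a probe with little or no target, since the 3 kept were much brighter. Those 3 were also brighter on both arrays than the network members MXI1 (43 and 50), MYCL (72 and 57) and MXD4 (88 and 89). A signal at the level of these members thus does not by itself show expression.

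None of the members measured above the level filter was 1.5-fold apart between the arrays. MYC, MYCL, MXI1 and MXD4 passed the filter, with folds between 1.09 and 1.25, and 3 of these 4 stood above 0 (2 of 4 on the deposited scale, without normalization). Of all genes kept, 3393 stood above 0 and 3287 under it, and on the deposited scale 2651 and 3966. Among all 6681 genes, 22.8% were at least 1.5-fold apart and 6.2% at least 2-fold apart, so a count of 0 in 4 is near that background. On the deposited scale the 2-fold counts over all genes were 140 higher and 318 lower, in place of 202 and 212, and the 1.5-fold counts were 531 and 1039, in place of 794 and 726. The median log2 ratio of the 4 was 0.13, beside 0.008 for all genes kept, and on the deposited scale it was -0.018, beside -0.12. All 4 lay within 0.44 of 0. MNT, MXD3 and MYCN did not pass the filter and are given mainly by their intensities.

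**Figure D1:**
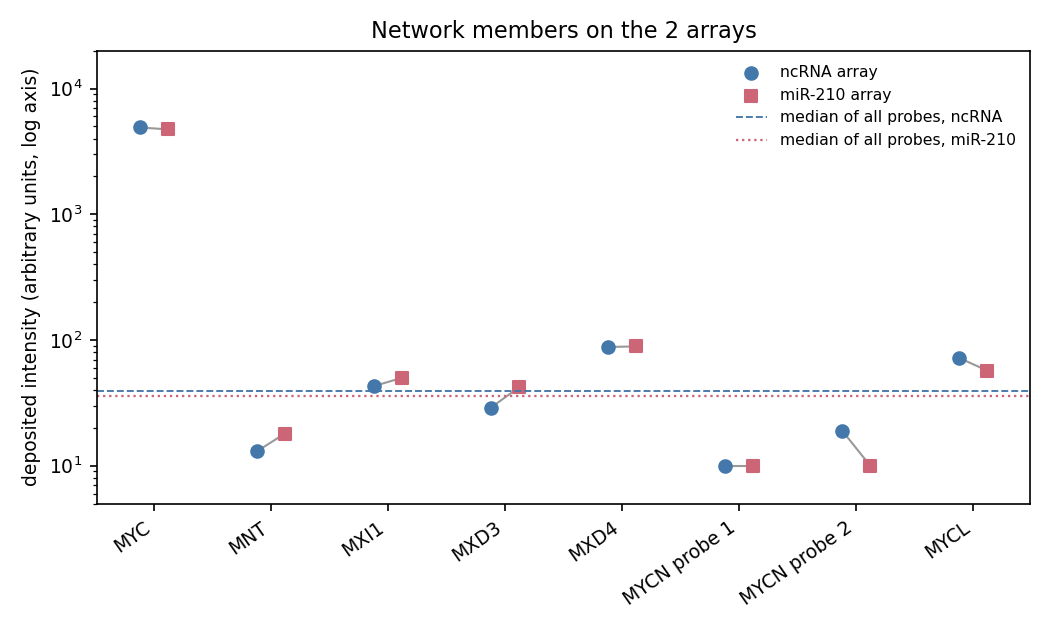
Deposited intensity (arbitrary units, log axis) of the 8 member probes on the ncRNA array (circles) and the miR-210 array (squares), joined by a line, with the median of all probes on each array dashed or dotted. MYC, at 4910 and 4738, is the brightest, MXI1, MXD4 and MYCL lie above both medians, and MNT and both MYCN probes lie under them. MXD3 crosses them.

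MYC, the activator that drives growth and ribosome production in many tumours, read 4910 with ncRNA and 4738 with miR-210. The probe was brighter than 98.0% and 98.2% of all probes on the respective arrays. Its log2 ratio was 0.14 after quantile normalization and -0.051 on the deposited scale, so that its sign depended on the scaling. Without normalization the median gene stood at -0.12. The 500 probes nearest to MYC in mean level had a SD of 0.39, and 75.7% of the genes kept were at least as far from 0 as MYC. No difference in MYC could be told from the scatter of probes in either direction.

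MYCL encodes L-MYC, a paralogue with a restricted pattern of expression, and its probe is listed under the older symbol MYCL1. It read 72 with ncRNA and 57 with miR-210, the lower value being on the miR-210 array. The log2 ratio was -0.23, or 1.18-fold lower, and ranged from -0.34 to -0.16 over the alternatives run. It was the only kept member under 0 after quantile normalization. The 500 probes nearest in level had a SD of 0.55, more than the size of this difference.

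MYCN, the paralogue known for amplification in neuroblastoma, had 2 probes, both dim. One read 10 on both arrays, and the other read 19 with ncRNA and 10 with miR-210. These values lie within the range of the fibroblast, leukocyte and endothelial probes that were not kept. The log2 ratio of the second probe was -0.91, beside a SD of 0.84 among the 500 probes nearest in level, and became -0.28 with an offset of 30 added to every value. The probes did not show a common difference, and none is read from them.

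Among the repressors, the probe of MNT, the reported miR-210 target, read 13 with ncRNA and 18 with miR-210. It was brighter than only 14.5% and 26.4% of all probes, near the level of COL1A1. The higher value was on the miR-210 array, by 5 intensity units, a log2 ratio of 0.49. With an offset of 10 the log2 ratio was 0.30 and with an offset of 30 it was 0.17, and the 500 probes nearest in level had a SD of 0.82. A lower MNT transcript level with miR-210 was not seen at this probe, and the signal was too low for a decrease to be measured.

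MXI1, a MAX-binding repressor that is induced in hypoxia, read 43 with ncRNA and 50 with miR-210. Its log2 ratio of 0.32, or 1.25-fold higher, was the largest of the 4 kept members. Of the genes kept, 48.4% were at least as far from 0, and the SD among the 500 probes nearest in level was 0.61. The ratio stayed between 0.19 and 0.32 over the alternatives run.

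MXD3, a repressor expressed in proliferating cells, read 29 with ncRNA and 42 with miR-210. It lay under the array median on the ncRNA array and above it on the miR-210 array, and its mean level of 35 was just under the filter at 37.5. Its log2 ratio was 0.63, or 1.55-fold higher, the largest positive value of any member probe. Among the 500 probes nearest in level the SD was 0.57, and with an offset of 30 the ratio was 0.34. The ratios of MXD3 and MNT were larger than 0.44, but that spread was computed over brighter probes.

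MXD4, a repressor of the same subfamily found in differentiating cells, read 88 with ncRNA and 89 with miR-210, which is nearly the same. Its log2 ratio was 0.13 after quantile normalization and 0.016 on the deposited scale.

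**Figure D2:**
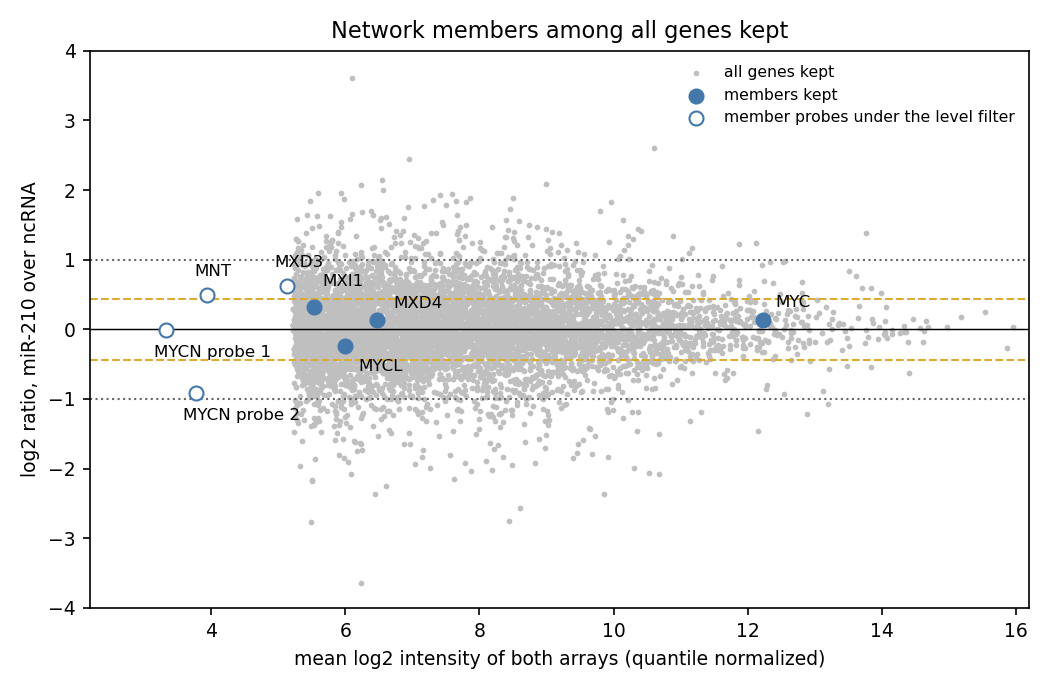
Log2 ratio of miR-210 over ncRNA against the mean log2 intensity of both arrays, for the 6681 genes kept (grey) and the 8 member probes (blue, filled where kept). Dashed lines mark 0.44 on either side of 0, the spread of probes of the same gene, and dotted lines mark 2-fold. The 4 filled points lie within the dashed lines, and the open points lie left of the grey cloud, below the level filter.

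Differences between members on the same pair of arrays do not depend on a constant scaling of an array, and were taken on the deposited scale for the 6 pairs of kept members. MXI1 was higher than MYC by 0.27 in log2 ratio, and MXD4 was higher than MYC by 0.068. MYCL was lower than MXI1, with a difference of -0.56, which was the widest of the 6. Quantile normalization is not a constant scaling, and after it MXI1 minus MYC was 0.18 and MXD4 minus MYC was -0.007. The sign for MXD4 thus depended on the scaling. A difference between 2 probes of the same gene had a SD of 0.62 after quantile normalization, and none of the 6 passed it. The ratio of MYC to MXI1 or MXD4 thus differed between the arrays by less than the spread between probes of a single gene.

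**Figure D3:**
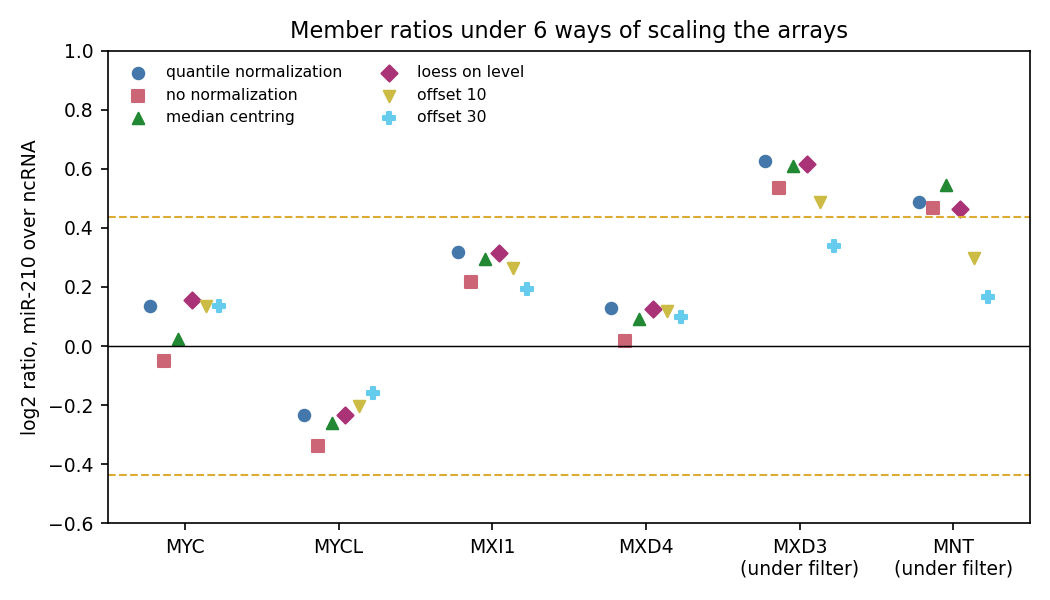
Log2 ratio of miR-210 over ncRNA for 6 members under 6 ways of scaling the arrays, with dashed lines at 0.44 on either side of 0. MYC lies on both sides of 0, from -0.051 to 0.16. MYCL is under 0 and MXI1, MXD4, MXD3 and MNT are above 0 in all those shown, and MNT goes from 0.545 to 0.17 with the scaling and the offset.

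Both arms of the network bind the E-box CACGTG, and this palindrome was searched in RefSeq promoter windows from 250 bases before to 50 after the start of each gene. Windows were found for 9 members, 12 windows in all, and 3 of these held the motif, beside 7.26% of all 35116 windows. MYC was the member without a window, so its promoter was not searched. The holders were 2 antagonist genes, MNT and MXD4, and MLX. The stretch around each is printed 5′ to 3′ on the strand of the gene, with the E-box in capitals, because it is the sequence that the members' own proteins recognise. It began 193 bases upstream of the start of MNT, 238 bases upstream of that of MXD4 and 50 bases upstream of that of MLX. The positions on GRCh38.p14 are chr17:2401218-2401283, minus strand, for MNT, chr4:2262312-2262359, minus strand, for MXD4, and chr17:42567020-42567085, plus strand, for MLX.
MNT: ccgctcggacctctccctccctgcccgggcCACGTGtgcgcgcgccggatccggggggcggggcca
MXD4: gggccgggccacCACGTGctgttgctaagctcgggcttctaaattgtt
MLX: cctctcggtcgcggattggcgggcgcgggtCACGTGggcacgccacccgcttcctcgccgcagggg
A match is a description of these letters and does not show binding. Of the 5514 genes kept that had a window, 13.1% held the motif in at least 1 window. The 723 genes with it had a median log2 ratio of -0.011 (SD 0.56 across genes), and 351 stood above 0 and 372 under it. The 4791 genes without it had a median of 0.010 (SD 0.53 across genes), and 2446 stood above 0 and 2344 under it. Of those with the motif 6.5% were at least 2-fold apart, 17 higher and 30 lower. Of those without it 6.14% were, 154 higher and 140 lower. The difference between these sets was not tested.

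Genes that MYC is known to activate, such as those of ribosome assembly and nucleotide synthesis, showed no common direction. Of 40 listed, 37 were named on the array and 33 were kept, with 19 above 0, 14 under it and a median log2 ratio of 0.045. That median turned to -0.13 on the deposited scale, where 22 of the 33 stood under 0 and the median of all genes was -0.12. Of all 6686 genes kept on that scale, 3966 stood under 0. At 1.5-fold, 4 genes were higher and 3 were lower, beside backgrounds of 11.9% and 10.9%. The highest were PPAT, the first enzyme of purine synthesis (108 with ncRNA and 195 with miR-210, log2 ratio 0.96), and GRWD1, a ribosome assembly factor (67 and 117, 0.91). The lowest were SHMT1, the cytosolic serine hydroxymethyltransferase (101 and 36, -1.38), and RRS1, a ribosome biogenesis regulator (490 and 272, -0.73). Only SHMT1 was 2-fold apart, beside 6.2% of all genes kept, and its miR-210 value equalled the array median. Among long-established MYC targets, ODC1, the rate-limiting enzyme of polyamine synthesis, read 4638 and 3390 (-0.27). The nucleolar protein gene NPM1 had 2 kept probes that differed in sign after quantile normalization only. The brighter read 50532 and 43697, a log2 ratio of 0.255 after quantile normalization and -0.21 on the deposited scale. The other read 6124 and 4291 (-0.30 after quantile normalization), so both were lower with miR-210 on the deposited scale. NCL, nucleolin, read 3210 and 3756 (0.43). ODC1, NPM1 and NCL were chosen after their values were seen. The 15 kept genes of this list with an E-box had a median of -0.055 and the 13 without one a median of 0.14.

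Genes that MYC is known to repress included THBS1 and NDRG1, which were lower with miR-210, and CDKN1A, which was higher. Of 16 listed, which include the MYC-binding repression partner ZBTB17 (MIZ1), 11 were kept, with 4 above 0, 7 under it and a median of -0.16. THBS1, the angiogenesis inhibitor thrombospondin, was 5.16-fold lower with miR-210 (206 and 37), and NDRG1, a gene of differentiation and hypoxia, was 2.17-fold lower (112 and 48). CDKN1A, the cell cycle inhibitor p21, stood at the other end, at 0.79 (504 and 802), and CDKN2B, which encodes p15, read 46 and 55 (0.36). At 1.5-fold 3 genes were lower and 1 was higher, beside backgrounds of 10.9% and 11.9%. ZBTB17 itself was among the 3, at a log2 ratio of -0.80 (170 and 90). CDKN1B, which encodes p27, stood at -0.52 (938 and 601). ZBTB17 and CDKN1B were chosen after their values were seen. The list thus had 2 genes at least 2-fold lower and none higher, beside backgrounds of 3.17% and 3.02%, and the miR-210 value of THBS1, 37, was next to the array median of 36.

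The SIN3 corepressor genes, listed with those of the NCOR complexes, did not share a direction. Of 19 genes 13 were kept, with 8 above 0, 5 under it and a median of 0.20. SAP30, a SIN3 subunit, was 1.72-fold higher (173 and 273) and ING2, another subunit of the complex, 1.55-fold higher (146 and 209). NCOR1, the scaffold of a separate corepressor, was 1.86-fold lower (1052 and 518), and RBBP7, a histone-binding subunit, was 1.41-fold lower (1524 and 969). At 1.5-fold 3 genes were higher and 1 was lower, beside backgrounds of 11.9% and 10.9%. The third of the higher genes was HDAC1 (1085 and 1497), which was chosen after its values were seen. None was 2-fold apart, beside 6.2% of all genes kept. The coactivators of MYC, 10 kept of 16, split 5 and 5 around a median of -0.002. At 1.5-fold 2 of them were higher and 1 was lower, beside the same backgrounds. HCFC1, a host cell factor that binds MYC, stood at 0.83 (32 and 53). Its ncRNA value was under the array median of 39, so it passed the level filter only through the miR-210 array. RUVBL2, an ATPase of chromatin remodelling complexes, stood at 0.73 (1372 and 2021). SMARCB1, a SWI/SNF subunit, stood at -0.64 (449 and 263), and the acetyltransferase EP300 at -0.26 (194 and 150).

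Genes that act on the stability of MYC protein had a median of 0.305 over 12 kept of 17 (0.19 on the deposited scale), with 8 above 0 and 4 under it. At 1.5-fold 5 were higher and 2 were lower, beside backgrounds of 11.9% and 10.9%, and 2 were at least 2-fold higher, beside a background of 3.02%. These 2 were PPP2R5A, a regulatory subunit of the phosphatase PP2A that dephosphorylates MYC, at 2.82-fold (109 and 283), and GSK3B, the kinase whose phosphorylation marks MYC for degradation, at 2.13-fold (227 and 448). The lowest were USP37, a deubiquitinase that acts on MYC, at -0.65 (142 and 84), and CIP2A, an inhibitor of PP2A, at -0.62 (168 and 101). FBXW7, the ubiquitin ligase subunit that recognises phosphorylated MYC, read 302 and 263 (-0.069), and USP28, a deubiquitinase that opposes it, was 1.6-fold higher (67 and 99). PIM1 (61 and 93, 0.72) and AURKA (308 and 438, 0.64) were also at least 1.5-fold higher. FBXW7, USP28, PIM1 and AURKA were chosen after their values were seen. The list holds genes with opposite effects on MYC protein, so its median has no direction for MYC, whose protein was not measured. Each of these genes had 1 kept probe.

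**Figure D4:**
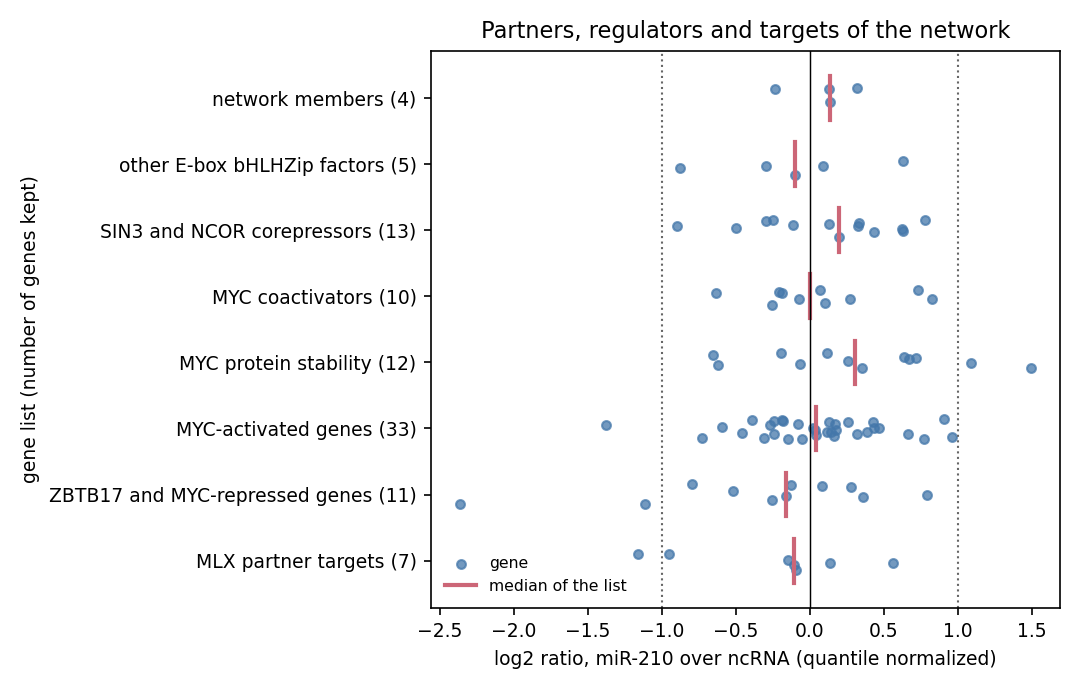
Log2 ratio of miR-210 over ncRNA for each kept gene (points, spread vertically for legibility) of the network and 7 related lists, with the median of each list as a vertical bar and dotted lines at 2-fold. Medians lie between -0.16 and 0.305, and 6 points lie outside the dotted lines.

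Of the other E-box factors of the same structural class, 5 of 11 named genes were kept, beside 6681 of 12445 over the whole array. Their median was -0.099, which was 0.087 with the mean over probes. USF2, a widely expressed E-box factor, was 1.84-fold lower (253 and 128), and SREBF2, the master regulator of sterol synthesis genes, was 1.54-fold higher (108 and 154). At 1.5-fold 1 of the 5 was higher and 1 was lower, beside backgrounds of 11.9% and 10.9%. MGA, a very large MAX-binding repressor, had 2 kept probes that went opposite ways, at -0.30 (190 and 143) and 0.90 (60 and 104), so no direction is given for it. MITF, the melanocyte factor, read 95 and 93. For MLX, which has no named probe, only targets of its partners could be read, and 7 of 8 were kept. Of these 5 stood under 0, beside 3287 of all 6681 genes kept. TXNIP, the best-known target of MLXIP and an inhibitor of glucose uptake, was 1.94-fold lower (744 and 352), and ELOVL6, a fatty acid elongase, was 2.24-fold lower (555 and 230). SCD, a fatty acid desaturase, read 63 and 86 (0.56), and the acetyl-CoA carboxylase gene ACACA read 82 and 83 (0.13). The median of these 7 was -0.11. At 1.5-fold 2 were lower and 0 higher, beside backgrounds of 10.9% and 11.9%, and 1 was at least 2-fold lower, beside 3.17%.

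The conditions under which MXI1 and the MYC balance are known to change include hypoxia, and a list of hypoxia response genes was read beside them. Of 12 named genes 11 were kept, with 5 above 0, 6 under it and a median of -0.18, which was 0.23 with a filter at the 75th percentile of level. ANGPTL4 was 3.62-fold higher, NDRG1 2.17-fold lower and EGLN3, a prolyl hydroxylase, stood at -0.999 (64 and 30), its miR-210 value at the level of dim probes. At least 2-fold apart were 1 gene higher and 1 lower, beside backgrounds of 3.02% and 3.17% of all genes kept. At 1.5-fold 2 were higher and 3 lower, beside 11.9% and 10.9%. P4HA2 stood at 0.79. Among 11 kept genes reported as miR-210 targets, which include the check gene FGFRL1 but not MNT, 8 stood under 0. Of all 6681 genes kept, 3287 did. The median of the 11 was -0.43, and 6 were left with a median of -0.245 under a filter at the 75th percentile of level. At least 2-fold lower were 2 of the 11, FGFRL1 and GPD1L (2.32-fold), beside a background of 3.17%. CASP8AP2 and PTPN1 read 0.42 and 0.34.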

How the data were processed

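The authors deposited background-subtracted intensity values, not logged, for 24267 probes on each of 2 arrays. The subtraction is read from the values, which run from -8 to 65496. For the scanner, the background method and any normalization, nothing is stated in the labels. Per the labels' protocols the label was Cy5. The 24177 probes above 0 on both arrays were taken to log2 and quantile normalized (Python 3.11.15, numpy 2.4.6, pandas 2.3.3), and those at or above the median mean level were kept. Symbols came from the platform annotation (13395 named probes; 2285 of 12474 symbols updated through RefSeq, GRCh38.p14, and 113 unmatched). A gene took its brightest kept probe. With 1 array per group no test was run, and precision is limited by the number of arrays. The normalization step was tested on simulated data with a constant shift between the arrays and equal numbers of probes raised and lowered. A shift that varies with level was not simulated.

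Members and lists were chosen with earlier results of these data known; the E-box comparison was added afterwards. All members were named, FGFRL1 as the check, and of each list the 2 highest, the 2 lowest and every gene at least 2-fold apart; other names are marked where they occur, apart from the cell type markers. Alternatives covered the scaling, an offset of 10 or 30, the probe rule and the level filter.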

Additional observations from a re-analysis of the deposited data

How the results depend on the processing

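No paired analysis was possible because each group had 1 array. A value counted as moved when it changed by over 0.44, the spread of probes of the same gene, or for a list by that SD over the square root of its size. No member that was kept moved, over 8 alternatives for MYC and 7 each for MYCL, MXI1 and MXD4. This is a weak check, since all 4 ratios lay within 0.44 of 0 from the start. Each of the 4 also had 1 probe, so the probe rule and the level filter could not change its ratio. MYC was the only member to change sign, on the deposited scale (-0.051). The median of MYC-activated genes was -0.13 on the deposited scale and -0.049 with each array centred on its median. With a stricter level filter (75th percentile), which left fewer genes and only MYC of the members, medians were -0.59 for other E-box factors, 0.33 for corepressors, 0.45 for MYC stability genes and -0.95 for MLX partner targets. Counts of genes at least 2-fold higher and lower, 202 and 212 as reported, were 110 and 121 with an offset of 30, 878 and 834 with no level filter and 95 and 98 with the stricter filter. At 1.5-fold, 794 and 726 became 497 and 474, 2131 and 1953, and 366 and 325 in the same order. On the deposited scale more genes were lower than higher, with 140 higher and 318 lower at 2-fold and 531 and 1039 at 1.5-fold. Dim signal limits MNT, MXD3 and MYCN.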
